A study of Mus musculus with 2 samples.

Results

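Red blood cells dominate the fetal liver, and their transcripts were followed here through 32 genes that encode embryonic globins, red cell membrane and blood group proteins, and erythroid regulators. A member was any listed gene with a probe set that the platform annotation assigns to that gene alone. Of the 32 genes, 30 had such probe sets, 52 in all. The arrays cover 18193 genes that have at least 1 probe set to themselves. The signals of Epb41 and Ahsp were not analysed here. Prox1 f/f;Foxa3Cre liver, where Cre made under Foxa3 recombines a floxed Prox1 gene, was compared with wild-type liver. Both were taken at the embryonic stage E14.5 on an NMRI/C57Bl6 background, and each genotype has 1 Affymetrix array. Neither the number of embryos behind an array nor whether the wild type carried Cre or floxed alleles is given in the labels. Foxa3 is a gene of gut and liver endoderm, a lineage that does not give rise to blood cells.

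Erythropoiesis in the mouse runs in successive waves. Primitive erythroid cells leave the yolk sac and make embryonic globins, and definitive erythroblasts mature in the fetal liver around macrophages and make adult globins. Erythropoietin signals through its receptor to keep erythroblasts alive, and the factors GATA1, TAL1, LMO2 and KLF1 switch on the genes for globins, heme and the membrane skeleton, a net of spectrin and ankyrin below the red cell membrane.

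The data are MAS5 signals, a linear brightness with 1 value per probe set and array, scaled to the same trimmed mean of 500.0 on both arrays. Signals below a floor of 112.6 were raised to it, and a gene was represented by its brightest probe set. With 1 array per genotype there is no spread between replicates and no test, so each difference below is between these 2 samples, and genes are counted by size at 2-fold. All 30 genes were above the floor on both arrays. Their brightest probe sets read 1153 to 25320 in the knockout, with a median of 7579, and 1398 to 27184 in the wild type, with a median of 8062. Each lay at or above percentile 86.5 of the knockout array and percentile 88.4 of the wild-type array.

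The arrays differ in other ways that lie beside every value. Prox1 read 221.8 in the knockout and 340.3 in the wild type on its brightest probe set and was lower in the knockout on all 3 of its probe sets. The other probe sets fell below the floor in the knockout (66.7 and 111.8, against 175.4 and 205.9 in the wild type). Differences on them are bounds, and all Prox1 probe sets were dim. Where these lie relative to the deleted part is not stated in the labels, so they do not measure the deletion. Albumin, the marker of the labelled tissue, read 33186 in the knockout and 32396 in the wild type. These are near the top signals, 37270 in the knockout and 37860 in the wild type, where differences can be compressed. Xist read 365.7 in the knockout and 11466 in the wild type. Eif2s3y, a gene of the Y chromosome, read 1972 in the knockout and 0.87 in the wild type on its brightest probe set. Sex-linked genes thus differed together with genotype, and with 1 array per genotype sex and genotype cannot be told apart. The part of sex in the values below was not tested. In whole liver, fewer cells of a type and less RNA per cell cannot be told apart.

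All but 1 of the 30 erythroid genes read within 1.26-fold on the knockout and wild-type arrays. Hbb-bh1, an embryonic beta-like globin, was more than 2-fold lower. Of the 30 genes, 1 was at least 2-fold lower, against 2.13% of 11397 genes measured on at least 1 array, and 0 were at least 2-fold higher, against 3.27%. At this size of list such a count of lower genes is near the background. Among 4200 genes with a mean signal of 1000 or more, as all members have, 1.36% were 2-fold lower and 1.17% were 2-fold higher. The median log2 difference, knockout minus wild type, was -0.10 over the members, 0.03 over all measured genes and -0.02 over the brighter genes. In all, 20 members were below 0 and 10 above, and 24 of the 30 lay within 0.25 of 0. Below 0 were also 5263 of the 11397 measured genes and 2292 of the 4200 brighter genes. Of the brighter genes, 3007 lay within 0.25 of 0. Without Hbb-bh1 the differences ran from -0.32 to 0.33 around a median of -0.10.

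**Figure D1:**
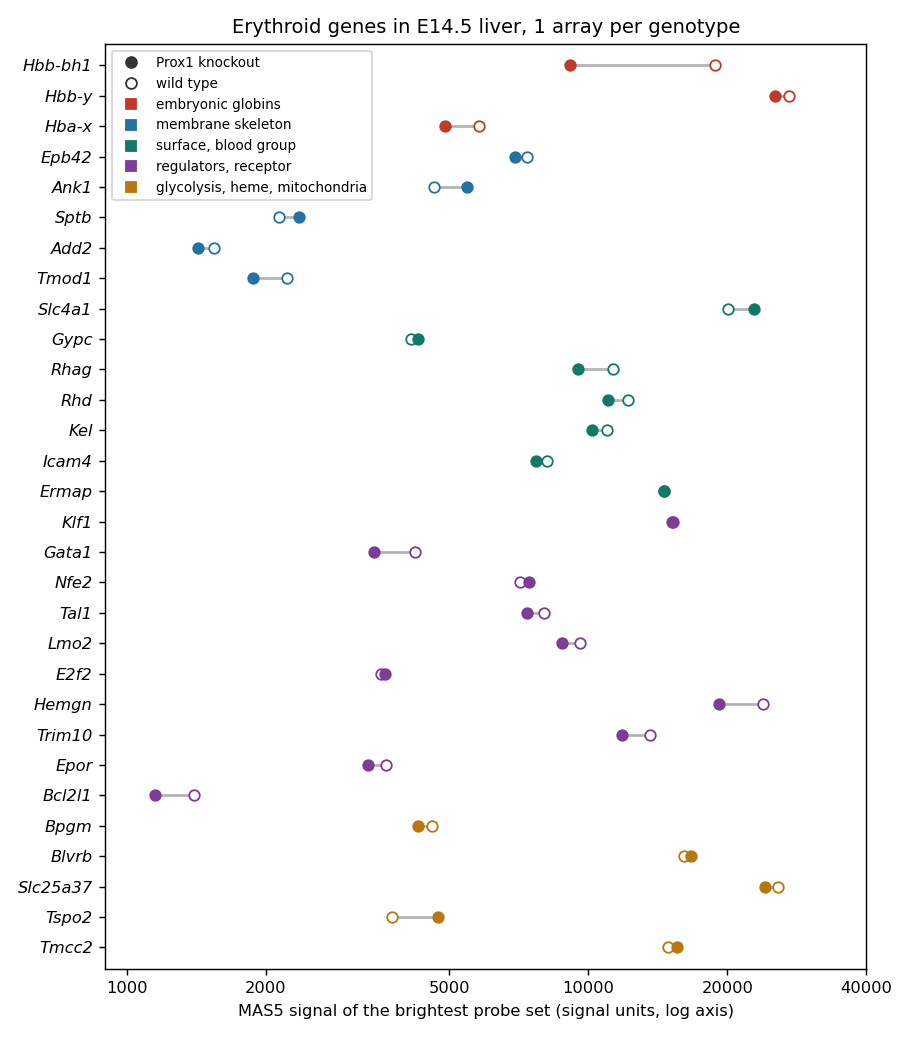
MAS5 signal of the brightest probe set of each of 30 erythroid genes (log axis), with the Prox1 knockout array as filled points and the wild-type array as open points, coloured by role. Each gene has 1 value per genotype, and the wide gap belongs to Hbb-bh1, at 9144 in the knockout and 18806 in the wild type.

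The embryonic globins held the widest difference of the list, and all 3 were below 0. Hbb-bh1 encodes the betaH1 chain, which pairs with embryonic alpha-like chains in primitive red cells. Its brightest probe set read 9144 in the knockout and 18806 in the wild type, 2.06-fold lower. The other probe sets read 8051 and 7344 in the knockout, against 18535 and 16781 in the wild type, 2.30-fold and 2.29-fold lower. All 3 probe sets therefore separate the arrays in the same direction by a similar amount, with log2 differences of -1.04, -1.20 and -1.19.

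Hbb-y encodes the epsilon-y chain, the other embryonic beta-like globin, and lies next to Hbb-bh1 in gene order with none between them. Its brightest probe set read 25320 in the knockout and 27184 in the wild type, a log2 difference of -0.10. Its other probe sets read 25499 and 15719 in the knockout, against 26486 and 19114 in the wild type, with differences of -0.05 and -0.28. Hbb-y was thus slightly lower on 3 of 3 probe sets, at signals where large differences were scarce: of 83 genes with a mean signal over 20000, 0 were 2-fold apart. Hba-x, the embryonic alpha-like zeta chain, read 4896 in the knockout and 5793 in the wild type, a difference of -0.24 on 1 probe set. Beta-like globin genes resemble each other in sequence, and some of these probe sets carry the suffix for possible cross-hybridization (_x_at), so signal shared between paralogs was not separated. Without such probe sets Hbb-bh1 was 2.30-fold lower.

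Against genes of like brightness Hbb-bh1 stood near the lower edge. Of 725 genes with a mean signal between 5000 and 20000, the middle 95% of log2 differences ran from -0.80 to 0.48, 14 were 2-fold lower and 5 were 2-fold higher. Hbb-bh1 ranked 13 from the lowest of 808 genes at a mean signal of 5000 or more. The genes below it included hepatocyte plasma protein genes such as Apoh (-2.60), Apoc2 (-2.51), Itih3 (-1.75) and the fibrinogen chains Fgb (-1.56) and Fga (-1.12). Over all 11397 genes, where dim genes scatter more, its rank was 220. The other members lay within the middle 95% of their own brightness band, except Hemgn at its edge (-0.32, in a band from -0.32 to 0.30).

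**Figure D2:**
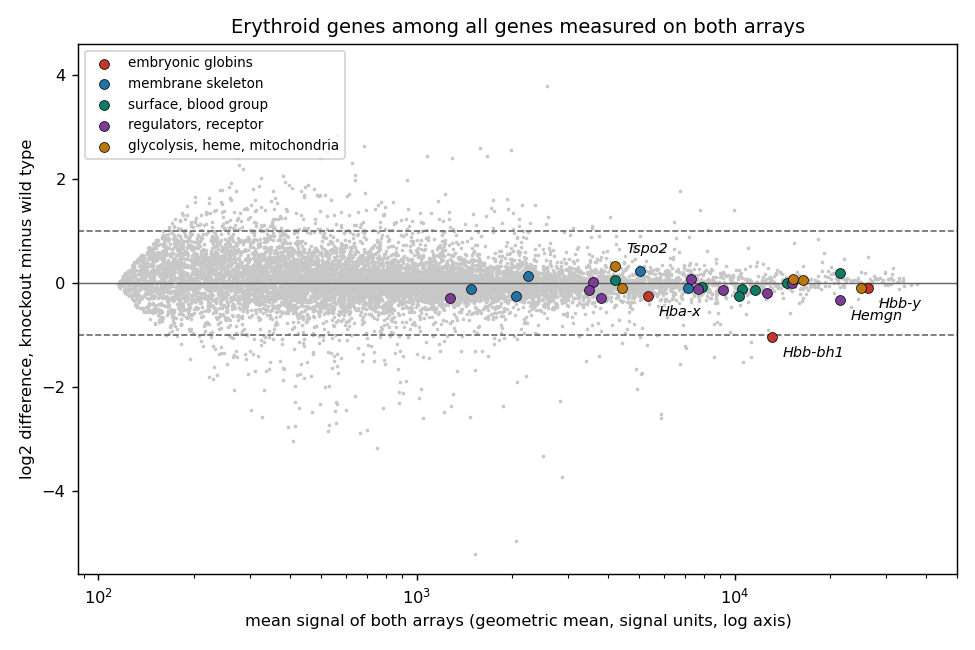
Log2 difference (knockout minus wild type) against the mean signal of both arrays (log axis) for all genes measured on both arrays in grey and 30 erythroid genes in colour, with dashed lines at 2-fold. The erythroid genes sit along 0 on the bright side of the plot, and Hbb-bh1 lies below the lower 2-fold line at -1.04.

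The promoters of the other embryonic globins and of Klf1 are shown because the first are the globins read beside Hbb-bh1 and the last encodes a factor that binds CACCC letters in globin promoters. Each stretch is the 120 bases before the annotated start, from RefSeq on build GRCm38.p6, read on the gene's strand. Capitals mark letters searched on both strands. A GATA site is AGATA or TGATA followed by a purine. The other letters are CACCC. The CCAAT box was marked as well.
Hbb-y, chr7:103853208-103853327, minus strand: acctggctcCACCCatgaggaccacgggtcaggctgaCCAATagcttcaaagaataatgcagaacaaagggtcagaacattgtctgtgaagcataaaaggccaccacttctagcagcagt
Hba-x, chr11:32276480-32276599, plus strand: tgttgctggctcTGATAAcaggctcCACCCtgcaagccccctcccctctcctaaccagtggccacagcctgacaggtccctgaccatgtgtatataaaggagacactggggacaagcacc
Klf1, chr8:84901862-84901981, plus strand: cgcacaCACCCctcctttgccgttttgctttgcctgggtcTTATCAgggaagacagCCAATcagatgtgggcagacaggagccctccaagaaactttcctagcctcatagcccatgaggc

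In these windows the CACCC letters begin at -111 in Hbb-y, -95 in Hba-x and -114 in Klf1, counted back from the start. The table of promoters held 33 promoters for 24 of the 32 genes, and Hbb-bh1, Gypc, Slc4a1, Ank1, Nfe2, Ahsp, Slc25a37 and Lmo2 had no entry. The 24 include Epb41, whose signal was not analysed, so member promoters here are those of any listed gene. In the 250 bases before the start, a GATA site stood in 18 of 33 member promoters (54.5%) and in 26.5% of 32851 mouse promoters. The CACCC letters stood in 25 of 33 (75.8%) and in 52.0% of all promoters. A longer form of the KLF recognition letters, CCNCNCCC, stood in 57.6% of member promoters and 45.9% of all. In percentage points, though not in every case as a ratio, the other letters searched differed less. CCAAT stood in 39.4% of member promoters and 33.8% of all. TGACTCA or TGAGTCA, the NF-E2 core, stood in 2 of 33 (6.06%) and in 4.46% of all. TATAAA or CATAAA, on the sense strand only, stood in 6 of 33 (18.2%) and in 12.8% of all. GATA sites and CACCC letters occurred together in 45.5% of member promoters and 11.8% of all. These are matches of letters, not measured binding.

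The membrane skeleton genes lay on both sides of 0, with 0 of 5 at 2-fold. Sptb, erythroid beta spectrin, read 2360 in the knockout and 2137 in the wild type, a log2 difference of 0.14. Ank1, the ankyrin that ties spectrin to band 3, read 5446 in the knockout and 4637 in the wild type on its brightest probe set, a difference of 0.23. The dimmer Ank1 probe sets did not follow it: they read 1975 and 395.1 in the knockout, against 1962 and 556.0 in the wild type, and another fell below the floor in the knockout only (95.6, against 177.6 in the wild type). As the median of its probe sets Ank1 was at -0.24, so its direction depends on the probe set.

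Epb42, which encodes an ankyrin-binding protein of the skeleton, read 6950 in the knockout and 7375 in the wild type, with differences of -0.09 and -0.04 on its probe sets. Add2, beta adducin, which caps actin at the spectrin junctions, read 1427 in the knockout and 1547 in the wild type. Its 5 probe sets ran from -0.56 to 0.28. Tmod1, the tropomodulin that caps the other end of those actin filaments, read 1883 in the knockout and 2228 in the wild type, a difference of -0.24. The spread among probe sets of Ank1 and Add2 is therefore wider than the difference of any skeleton gene's brightest probe set.

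Red cell surface and blood group genes also read alike, with 0 of 7 at 2-fold and a median log2 difference of -0.08. Slc4a1 encodes band 3, the anion exchanger of the red cell. It read 22823 in the knockout and 20063 in the wild type on the probe set taken for the gene, and the remaining probe sets read 17250 and 3856 in the knockout, against 18335 and 4653 in the wild type. The differences were 0.19, -0.09 and -0.27, so Slc4a1 has no settled direction.

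The Rh genes were both slightly lower. Rhag, the Rh-associated glycoprotein, read 9476 in the knockout and 11314 in the wild type, a difference of -0.26. Rhd read 11051 in the knockout and 12196 in the wild type, a difference of -0.14. Among the others, Kel, the Kell blood group endopeptidase, read 10191 in the knockout and 10986 in the wild type. Icam4, the Landsteiner-Wiener adhesion protein, read 7705 in the knockout and 8129 in the wild type. Gypc, glycophorin C, read 4268 in the knockout and 4120 in the wild type. Ermap, the Scianna blood group protein, read 14588 in the knockout and 14555 in the wild type, a difference of 0.0032 that is just below 0 after centring on all genes. The range of this group, from -0.26 to 0.19, is narrow beside the 2-fold mark of 1.

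**Figure D3:**
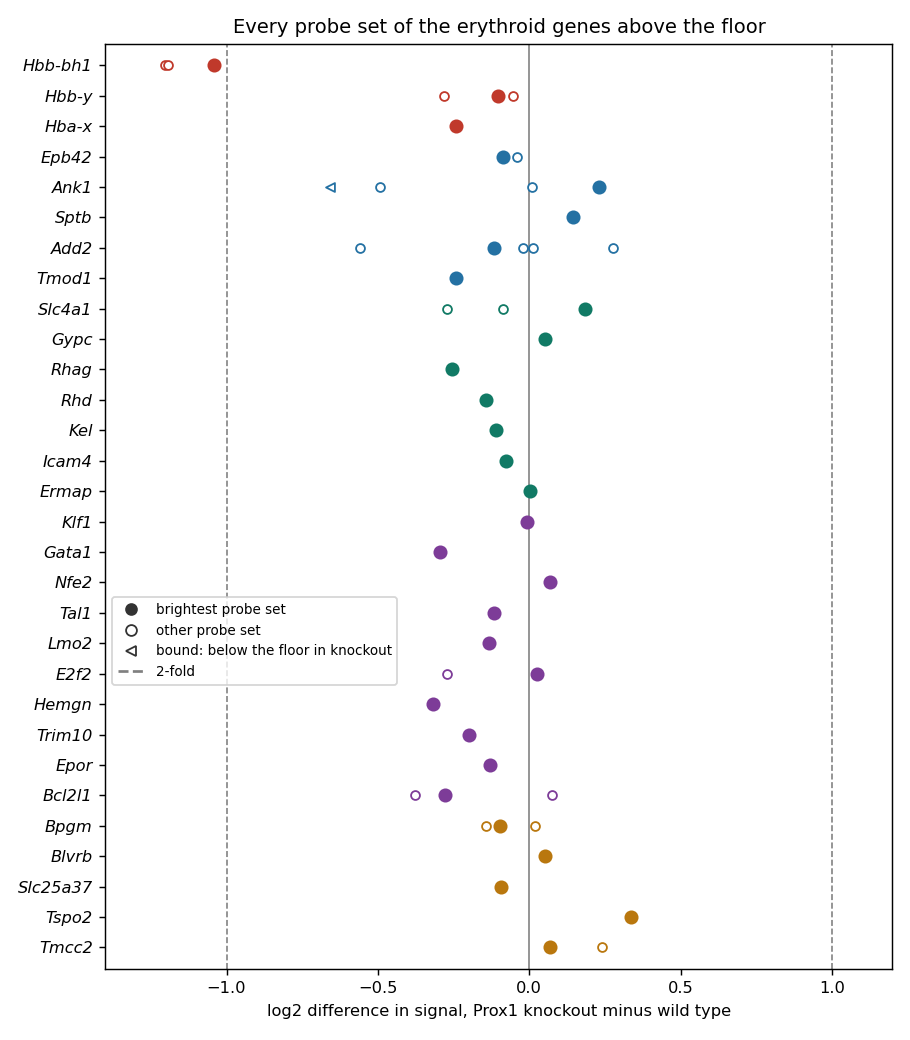
Log2 difference (knockout minus wild type) of each probe set of the erythroid genes that was above the floor on at least 1 array, with the brightest probe set of a gene filled and the others open. A triangle is a bound, and dashed lines mark 2-fold. Only the 3 probe sets of Hbb-bh1 pass the lower line, and the probe sets of Ank1, Add2 and Slc4a1 lie on both sides of 0.

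Of 10 erythroid regulators, 8 were below 0, with a median of -0.13 and 0 at 2-fold. Among the 4200 genes with a mean signal of 1000 or more, 2292 were below 0, with a median of -0.02. Klf1, the zinc finger factor that activates adult beta globin, read 15161 in the knockout and 15221 in the wild type. Its difference of -0.0058 turns just above 0 after lowess correction. Gata1, the master factor of the lineage, read 3435 in the knockout and 4217 in the wild type, 1.23-fold lower. Hemgn, a nuclear protein of erythroid cells, read 19134 in the knockout and 23875 in the wild type. At 1.25-fold lower, Hemgn was the lowest member after Hbb-bh1.

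The partners of GATA1 were closer to 0. Tal1 read 7378 in the knockout and 7995 in the wild type, and Lmo2, the bridge in the same complex, read 8767 in the knockout and 9610 in the wild type. Their differences were -0.12 and -0.13. Nfe2, a subunit of the factor that binds globin control regions, read 7452 in the knockout and 7106 in the wild type, a difference of 0.07. E2f2, a cell cycle factor of maturing erythroblasts, had probe sets at 0.03 and -0.27, on both sides of 0. Trim10, a RING finger protein of erythroid cells, read 11832 in the knockout and 13590 in the wild type, a difference of -0.20.

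Genes of survival signalling by erythropoietin differed by less than 2-fold. Epor, the erythropoietin receptor, read 3339 in the knockout and 3650 in the wild type, a difference of -0.13. Bcl2l1, which encodes the survival protein BCL-XL, read 1153 in the knockout and 1398 in the wild type. Its probe sets above the floor ran from -0.38 to 0.08. Of 5 other measured genes of the Epo pathway, 0 were 2-fold apart and the farthest were Pim1, a survival kinase, at -0.37 and Trib3, a pseudokinase, at 0.76. The other probe set of Pim1 was lower still, at -0.70. Trib3 was dim, at 194.8 in the knockout and 115.3 in the wild type, and its other probe set was at 0.21.

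Genes for red cell metabolism, heme handling and mitochondria had a median of 0.05 over 5 members, with 0 at 2-fold. Tspo2, an erythroid relative of the mitochondrial translocator protein, read 4733 in the knockout and 3753 in the wild type, 1.26-fold higher and the highest of all members. Slc25a37, mitoferrin 1, which brings iron into mitochondria, read 24104 in the knockout and 25729 in the wild type. Blvrb, biliverdin reductase B, read 16661 in the knockout and 16081 in the wild type. Bpgm, which makes 2,3-bisphosphoglycerate, ran from -0.14 to 0.02 over 3 probe sets. Tmcc2 had probe sets at 0.07 and 0.24. None of these genes approaches the difference of Hbb-bh1.

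Probe sets of the same gene show how far readings of a gene can differ, which is not the spread between replicates. Of 52 member probe sets, 49 were above the floor on both arrays, 1 on the wild-type array only and 2 on neither. Among 10 genes with several probe sets above the floor, 6 had probe sets on both sides of 0, and the range within a gene had a median of 0.26 and reached 0.89. The widest range was that of Ank1 and rests on dim probe sets, 1 of them below the floor in the knockout. The 29 members besides Hbb-bh1 lay between -0.32 and 0.33 on their brightest probe sets. A range set by dim probe sets cannot decide whether such differences of bright ones exceed technical spread.

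Other erythroid genes outside the list had a median log2 difference of 0.02. Of 100 listed, 82 were measured, with 47 above 0 and 35 below. At least 2-fold lower was 1 of them, against 2.13% of all measured genes, and 0 were 2-fold higher, against 3.27%. Within 0.25 of 0 lay 58, and 9 lay 0.5 or more from it. The single gene was Cd59a, which encodes a complement inhibitor anchored on red and other cells. It read 515.1 in the knockout and 2892 in the wild type, 5.61-fold lower, and its other probe set read 458.0 in the knockout and 2992 in the wild type. It stood among 15 measured membrane genes with a median of 0.05.

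Heme and iron genes had 14 measured, 0 at 2-fold and a median of 0.01. Alas2, the erythroid enzyme that starts heme synthesis, read 14979 in the knockout and 14942 in the wild type. Tfrc, the transferrin receptor by which erythroblasts take up iron, read 12255 in the knockout and 18272 in the wild type, 1.49-fold lower. Its other probe sets were at -0.51 and -0.32, and the array's own control probe sets for Tfrc, which lie along the transcript, were at -0.39 (3′), -0.76 (middle) and -0.63 (5′). Tfrc was thus lower on every probe set read, and hepatocytes and dividing cells carry it as well. Alad, the next enzyme of heme synthesis, read 31320 in the knockout and 22103 in the wild type, 1.42-fold higher, but its other probe set was at -0.04.

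Regulators, maturation genes and progenitor genes outside the list had 0 members at 2-fold on their brightest probe sets. The 24 other regulators had a median of 0.07, with Foxo3, a factor of erythroid maturation, at 0.29. Stat5a, which transmits the erythropoietin signal, was at -0.45 on its brightest probe set and 0.56 on the other. The 14 maturation and enzyme genes had a median of -0.04, with carbonic anhydrase Car1 at 0.87. Epx, at a bound of 0.84, also stands in that list but encodes the peroxidase of eosinophils. The 9 progenitor genes had a median of 0.03, with Gata2 at 0.20. Cd34, also a gene of vessels, was at 0.89, at signals of 354.1 in the knockout and 191.1 in the wild type. Itga4, another of the progenitor genes, was at -0.09 on its brightest probe set. Its other probe sets above the floor were at -2.93, -1.49 and -0.96, so its difference depends on the probe set.

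Adult globins could be read only in part, from probe sets that carry 1 gene symbol. Hbb-b2, adult beta globin minor, read 6687 in the knockout and 5590 in the wild type on its brightest probe set (_x_at), a difference of 0.26. Its other probe set was below the floor. Hba-a2, an adult alpha globin, read 174.5 in the knockout and 222.8 in the wild type, a difference of -0.35 on a dim probe set. Hba-a1 was below the floor on both arrays. Probe sets with several symbols were not read, so these values cannot show adult alpha globin to be low or absent.

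**Figure D4:**
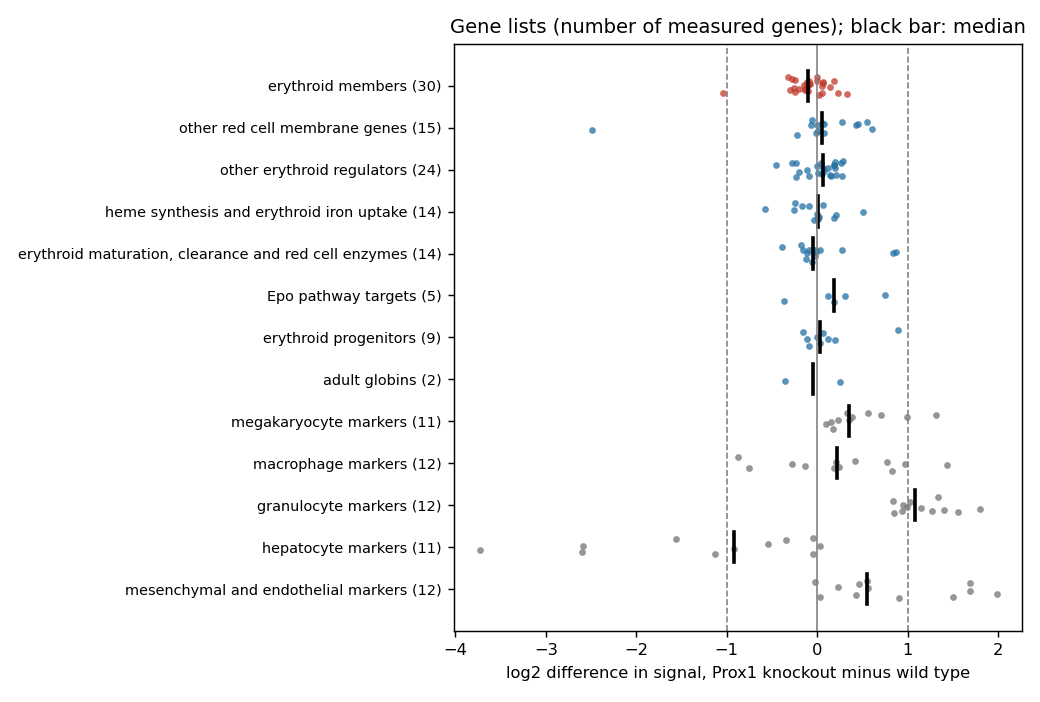
Log2 difference (knockout minus wild type) of each measured gene, by list, with the number of measured genes in brackets, a black bar at the median and dashed lines at 2-fold. A gene on the floor on 1 array is plotted at its bound. The median is -0.10 for the members, granulocyte markers centre at 1.09 and hepatocyte markers at -0.91.

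Markers of granulocytes, mesenchyme and hepatocytes held more genes at 2-fold than the erythroid lists. Over all 11397 measured genes 3.27% were at least 2-fold higher and 2.13% lower, and among the 4200 brighter genes 1.17% and 1.36%. The lists were not matched for brightness. Granulocyte markers summed to 76929 in the knockout and 36767 in the wild type, with a median of 1.09 and 7 of 12 at least 2-fold higher. Mesenchymal and endothelial markers summed to 18005 in the knockout and 9566 in the wild type, with 4 of 12 at least 2-fold higher. Mesenchymal genes at 2-fold included dim ones: Hand2, Pdgfrb and Col1a1 read 285.9, 247.2 and 322.7 in the wild type, against 1271 for Col1a2. Megakaryocyte markers, from the lineage that shares its progenitor with red cells, summed to 20903 in the knockout and 17136 in the wild type, with all 11 above 0, 1 of them 2-fold higher, and a median of 0.35. Hepatocyte markers summed to 146671 in the knockout and 198809 in the wild type, with 5 of 11 at least 2-fold lower.

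Macrophages, around which fetal liver erythroblasts mature, had markers in both directions, summing to 21726 in the knockout and 18334 in the wild type with a median of 0.22 over 12 genes, 8 of them above 0. Marco, a scavenger receptor, was at least 2-fold higher, with a log2 difference of 1.44. Aif1 (0.97), Fcer1g (0.82), Adgre1 (0.77) and C1qa (0.42) were also above 0. The lowest of the list were Vcam1 and Timd4. Vcam1, the adhesion protein of the erythroblast island macrophage and also of other stromal cells, read 1574 in the knockout and 2896 in the wild type, a log2 difference of -0.88, and was at -0.67 and -0.24 on its other probe sets. Timd4, a receptor of resident macrophages, read 347.3 in the knockout and 583.7 in the wild type. Cd163 was below the floor on both arrays. These macrophage genes were named after their values were seen. The part of these other cells in the erythroid values was not tested.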

How the data were processed

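Liver RNA of 1 Prox1 f/f;Foxa3Cre and 1 wild-type sample was hybridized to single-colour Affymetrix arrays after one-cycle biotin labelling, per the labels' protocols. The deposited values are linear intensity, made by the authors with MAS5 according to the submitters' processing notes, which name no version. The 2% trimmed mean was 500.0 on both arrays, so the values were used as deposited. MAS5 subtracts mismatch signal, so dim probe sets scatter. Of 45101 probe sets, 64 controls were left out, 34945 of the rest carried 1 gene symbol in the platform annotation, and 932 with several symbols and 9160 that were not listed name no gene.

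The floor of 112.6 is the higher of the arrays' 50th percentiles. The brightest probe set, by mean log2 signal, represents a gene, which counts as measured where it is above the floor on at least 1 array. A gene on the floor on 1 array gives a bound. No p-value is given, because there are no replicates, and the number of arrays limits the precision. The members and lists were chosen with earlier results of these data known. All members were named, and of each other erythroid list the genes at least 2-fold apart or the 2 farthest from 0, with Alas2 and adult globins whatever their values. Itga4 was named because of its other probe sets. Some listed genes are not reported here. The CACCC letters were settled after the promoters had been read, and the longer form tried first is given beside them. Alternatives changed the floor, the probe set, the scaling and the size rule. Versions were pandas 2.3.3, numpy 2.4.6, statsmodels 0.14.6 (lowess) and Python 3.11.15. The counting was tested on simulated data.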

Additional observations from a re-analysis of the deposited data

How the results depend on the processing

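The count of 1 member at least 2-fold lower and 0 higher held under 10 of 11 alternatives, of which the 3 that changed the floor left every member's value as it was, since all members are far above it. At 3-fold in place of 2-fold the count of lower members was 0, because Hbb-bh1 is just past 2-fold: its log2 difference ran from -1.20 to -1.02 over the other alternatives. The members' median ran from -0.13 with centring on all genes to -0.06 with quantile normalization, and stayed below 0. Between 19 and 23 members were below 0. Of 30 members, 25 kept their sign, and Ank1, E2f2, Ermap, Klf1 and Slc4a1 did not. Leaving out probe sets over 20000, an alternative chosen after seeing the data, removed 2 members and put Slc4a1 at -0.09. Counts over all genes depended on the floor and size: 373 higher and 243 lower became 789 and 414 when the 30th percentile was the floor, 2362 and 1470 without a floor, 1125 and 594 at 1.5-fold, and 99 and 102 at 3-fold. No paired analysis was possible because each genotype has 1 array. Leaving out a replicate was not possible for the same reason. Differences of bright genes can be compressed, and dim probe sets scatter.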
